A study of Mus musculus with 19 samples.

Results

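Cytochrome P450 genes were followed in the RNA of whole mouse kidneys, together with Por, whose product passes electrons to the P450 enzymes of the endoplasmic reticulum. Members were taken by symbol alone. The rule took symbols made of Cyp, a family number, a subfamily letter or letters and a gene number, plus Por. The rule left out 3 genes, among them Cyp4a12a, and asked for at least 100 counts summed over the 19 libraries. It gave 41 of the 55536 genes in the count table, of which 18 belong to family 2, 12 to family 4 and 10 to other families, with Por as the last. The other 56 of the 97 matching symbols had fewer than 100 counts, and 19 of those had none. They comprised 31 genes of family 2, 7 of family 4 and 18 of other families. Cyp26a1 (104 counts) and Cyp4f39 (111 counts) stood just inside the limit, and Cyp2b10 (82 counts) and Cyp4f15 (75 counts) just outside it.

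The groups were 8 libraries of obstructed kidneys given zalfermin, 7 of obstructed kidneys given vehicle and 4 of healthy kidneys. The series design writes the injury as UUO, read here as unilateral ureteral obstruction, in which a ureter is tied and the kidney behind it scars, while the sample labels name the condition MASH. Zalfermin is a long-acting analogue of the hormone FGF21, and the labels give the drug only as a code. Healthy mice are untreated in the labels and vehicle-treated in the design. Neither labels nor design state strain, sex, age, dose or duration, or that each library came from its own animal, so the p-values measure the spread between these libraries, which may be technical.

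P450 enzymes hold a haem iron and insert an oxygen atom into lipids, steroids, retinoids, vitamin D and foreign compounds. In the kidney they are most abundant in the proximal tubule. Family 2 is known for the metabolism of foreign compounds and for turning arachidonic acid into epoxides, family 4 for the omega-hydroxylation of fatty acids and of arachidonic acid to the vasoactive lipid 20-HETE, and the other families hold enzymes of steroid, bile acid and retinoic acid metabolism.

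Libraries held 12209122 to 14844103 counts. The members took 0.319 to 0.439% of these in zalfermin, 0.330 to 0.527% in vehicle and 0.798 to 0.968% in healthy kidneys. The libraries carried the RNA of kidney, and all 12 proximal tubule markers fell with obstruction under vehicle. Their summed level ran from 6685 to 12599 CPM in zalfermin, from 8632 to 15341 CPM in vehicle and from 41785 to 57309 CPM in healthy kidneys, with no marker at 0 in any group. CPM is a gene's count over the library's TMM-scaled total, in the usual per-megaread unit. In whole-kidney RNA, fewer cells of a type and less RNA per cell cannot be told apart, and the part that the loss of this marker RNA has in the results below was not tested. Mitochondrial genes took 2.95 to 4.25% of the counts in zalfermin, 1.10 to 4.21% in vehicle and 8.77 to 10.2% in healthy libraries, so this share moved with obstruction as well, and its part in the obstruction results was not tested. Vehicle replicate 6 stood apart, with mitochondrial genes at 1.10% of its counts where its fellow vehicle libraries had 3.09 to 4.21%. Values without it stand beside the results that rest on it.

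Obstruction under vehicle lowered most P450 genes of family 2 and split family 4. Of the 39 members with enough counts for the test, 22 were called lower than in healthy kidneys, where 28.6% of all 16026 tested genes were, and 10 were called higher, against 36.2% of all genes. Calls in either direction came to 32 of 39 members and to 64.8% of all genes. A call means an adjusted p under 0.05 in edgeR's quasi-likelihood test. In family 2, 13 of 18 genes fell and 1 rose. The median log2 fold change of the family was -1.58. In family 4, 6 of 11 tested genes rose and 5 fell, with a median of 0.39. In the other families 3 of 9 tested genes rose and 3 fell, with a median of -0.06, and Por fell. The median was -0.69 over all tested members and 0.09 over all tested genes. Vehicle and healthy libraries did not overlap for 18 members that lay lower, where 19.5% of all genes did so, and for 8 that lay higher, against 24.7%, and 44.2% of all genes stood apart in either direction. Without vehicle replicate 6 the counts were 10 higher and 22 lower, of 38 tested.

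**Figure D1:**
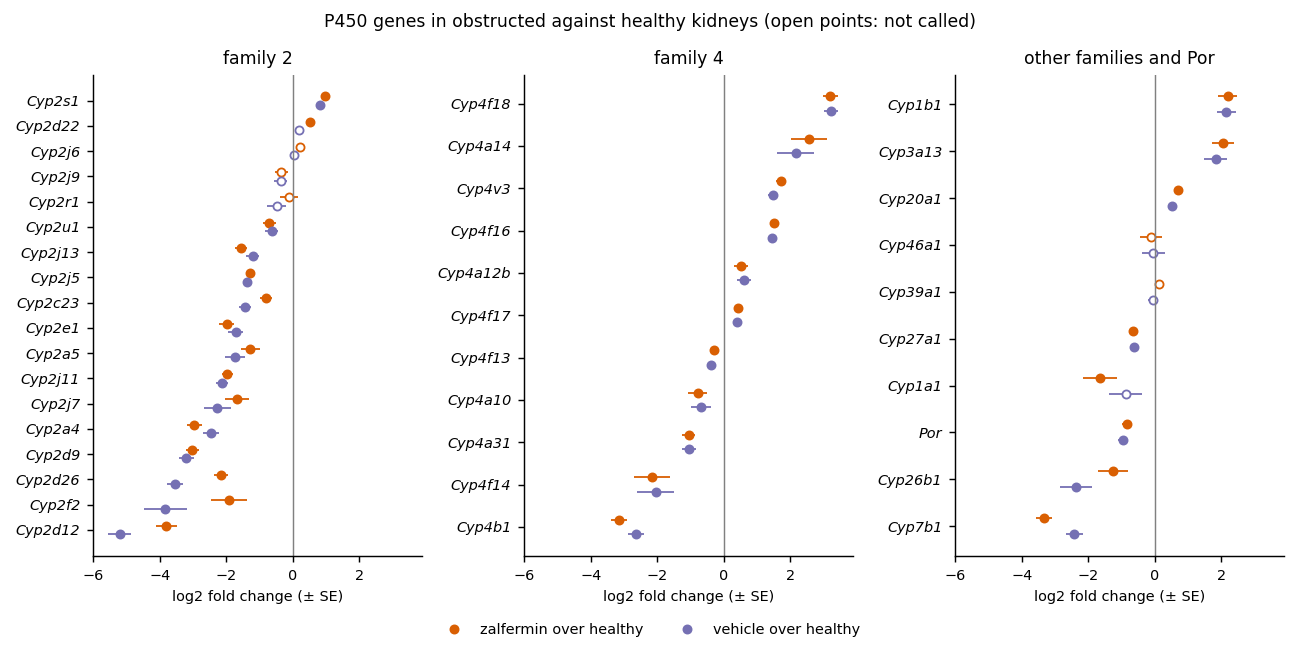
Log2 fold change of each tested member over healthy kidneys, for zalfermin (orange) and vehicle (purple), with the standard error as a bar. Filled points passed an adjusted p of 0.05. In family 2 all points but those of Cyp2s1, Cyp2d22 and Cyp2j6 lie left of 0, while family 4 runs from -2.64 to 3.22 under vehicle.

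Summed over their members, family 2 held 1916 ± 275 CPM in zalfermin, 1925 ± 288 CPM in vehicle and 6022 ± 651 CPM in healthy kidneys (SD, n = 8, 7 and 4). Family 4 held 1209 ± 243, 1281 ± 540 and 4005 ± 777 CPM in zalfermin, vehicle and healthy kidneys. The other families held 280.2 ± 35.0, 310.2 ± 48.3 and 610.2 ± 40.5 CPM in the same groups. Much of this RNA came from a few genes. Cyp2j5, Cyp4b1 and Cyp2e1 together made up 45.8% ± 4.25 of the members' CPM in zalfermin, 49.6% ± 3.59 in vehicle and 62.5% ± 4.02 in healthy kidneys. Per kilobase of exon, levels of different genes can be set side by side. On this scale Cyp4b1 led the members in healthy kidneys at 1408 CPM per kb, followed by Cyp2j5 at 943 and Cyp2e1 at 710.4. Under obstruction Cyp2j5 led instead, at 390.3 CPM per kb with zalfermin and 364 with vehicle, and Cyp4b1 stood at 159 with zalfermin and 227 with vehicle.

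Among the abundant genes of family 2, Cyp2j5 makes epoxides of arachidonic acid. Its level was 819, 874 and 1138 CPM (lowest, median and highest library) in zalfermin kidneys, 672, 843 and 1104 CPM in vehicle kidneys, and 2018, 2193, 2225 and 2405 CPM in the 4 healthy kidneys. No obstructed library reached the lowest healthy one, and the log2 fold change of vehicle over healthy was -1.37 (SE 0.117, adjusted p = 7.82e-10). Cyp2e1, an enzyme of ethanol and small solvents, held 221, 373 and 606 CPM in zalfermin, 287, 400.3 and 681 CPM in vehicle, and 1211, 1211, 1450.2 and 2259 CPM in healthy kidneys. Again no obstructed library overlapped the healthy ones (log2 -1.72, SE 0.231, adjusted p = 8.94e-07). Cyp2j11, a neighbour of Cyp2j5, stood at 72.2 ± 15.9 CPM in vehicle kidneys against 316 ± 22.4 CPM in healthy kidneys (SD, n = 7 and 4), a log2 fold change of -2.13 (SE 0.171, adjusted p = 3.20e-10).

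The Cyp2j genes lie together on chromosome 4, between 96027534 and 96664154 on GRCm38, and did not all move. Of these 6 neighbours, 4 fell, with log2 fold changes of -1.20 for Cyp2j13, -1.37 for Cyp2j5, -2.13 for Cyp2j11 and -2.27 for the scarce Cyp2j7. Cyp2j6 did not pass the test and was nearly level, at 65.7 ± 11.4 CPM in vehicle and 64.5 ± 3.74 CPM in healthy kidneys (log2 0.03, 95% confidence interval -0.20 to 0.25, adjusted p = 0.842). Its lowest vehicle library, at 42.2 CPM, was replicate 6. Without that library its log2 fold change was 0.06 (SE 0.0640). Cyp2j9, also in this cluster, had a log2 fold change of -0.37 (interval -0.76 to 0.03, adjusted p = 0.0992), and it was called lower without healthy replicate 2 and by DESeq2 (adjusted p of 0.0358 to 0.0438).

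The 4 Cyp2d members, on chromosome 15 between 82370527 and 82794294, held both the largest fall among all members and a gene that did not fall. Genes of this subfamily metabolise drugs and steroids, and Cyp2d9 is known as a testosterone 16-alpha-hydroxylase. Cyp2d12 was at 5.05, 11.7 and 21.6 CPM in zalfermin, at 1.59, 4.59 and 9.75 CPM in vehicle, and at 153, 156, 187 and 187 CPM in healthy kidneys. Every vehicle library lay far below the lowest healthy one, and the log2 fold change was -5.21 (SE 0.351, adjusted p = 2.01e-11). Cyp2d26 held 14.3 ± 3.95 CPM in vehicle against 167 ± 6.62 CPM in healthy kidneys (SD, n = 7 and 4), a log2 of -3.54 (SE 0.229, adjusted p = 9.95e-12). Cyp2d9 held 27.7 ± 7.49 CPM in vehicle against 254 ± 29.1 CPM in healthy kidneys, a log2 of -3.20 (SE 0.214, adjusted p = 1.81e-11). Cyp2d22, the fourth neighbour, stood at 27.2 ± 2.38 CPM in vehicle and 24.0 ± 2.83 CPM in healthy kidneys (log2 0.18, interval -0.08 to 0.44, adjusted p = 0.211). Coding identity between Cyp2d9 and Cyp2d12 is 92.1%, and 2.37% of the 75-base stretches of Cyp2d12 occur in another gene, Cyp2d9. For Cyp2d9 12.9% occur in other genes, Gm46501 sharing the most, ahead of Cyp2d12. Exons of Cyp2d9 overlap Gm46501 and Gm27622 on the same strand, by 246 bases. Reads of Cyp2d9 and Cyp2d12 may therefore be split with each other or with other genes.

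Cyp2a4, a testosterone hydroxylase, and its near copy Cyp2a5, a coumarin hydroxylase, lie apart on chromosome 7, at 26307169 to 26315088 and 26835305 to 26843548. Cyp2a4 held 61.4, 98.4 and 119 CPM in zalfermin, 72.0, 119.5 and 209 CPM in vehicle, and 529, 655, 796 and 864 CPM in healthy kidneys. Its obstructed and healthy libraries did not overlap (log2 of vehicle over healthy -2.47, SE 0.234, adjusted p = 4.55e-09). Cyp2a5 held 31.6 ± 12.4 CPM in vehicle against 106 ± 37.4 CPM in healthy kidneys, a log2 of -1.74 (SE 0.294, adjusted p = 1.97e-05). Their coding sequences differ at 23 of 1482 bases, and the longest identical run spans 216 bases, so a short read often cannot tell them apart and their separate values are uncertain. The 90 coding bases from base 580 to base 669, where differences are most dense, are shown for both genes, with the differing bases in capitals:
Cyp2a4: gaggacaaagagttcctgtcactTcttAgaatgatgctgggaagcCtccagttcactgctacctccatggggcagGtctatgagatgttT
Cyp2a5: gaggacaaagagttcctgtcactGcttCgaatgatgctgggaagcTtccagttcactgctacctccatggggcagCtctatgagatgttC

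Among the remaining family 2 genes, 3 more fell and 1 rose. The epoxygenase gene Cyp2c23, a major source of epoxides from arachidonic acid in rodent kidney, was at 11.8 ± 2.11 CPM in vehicle against 31.7 ± 9.18 CPM in healthy kidneys (log2 -1.43, SE 0.188, adjusted p = 6.20e-07). Cyp2u1, a long-chain fatty acid hydroxylase, had a log2 of -0.63, and the scarce Cyp2f2, known for naphthalene metabolism in lung, had a log2 of -3.83 at 0.162 ± 0.164 CPM in vehicle against 2.41 ± 0.492 CPM in healthy kidneys. Cyp2s1, a P450 of epithelia, was the single family 2 gene called higher. It was at 29.1, 38.0 and 47.2 CPM in zalfermin, 30.2, 35.5 and 37.5 CPM in vehicle, and 16.7, 18.5, 20.7 and 22.5 CPM in healthy kidneys. Every obstructed library exceeded every healthy one (log2 of vehicle over healthy 0.83, SE 0.115, adjusted p = 1.41e-06), and 260 bases of its exons overlap a gene on the opposite strand. Cyp2r1, a vitamin D 25-hydroxylase, did not pass the test, with a log2 of -0.49 (interval -1.06 to 0.09, adjusted p = 0.130), but did so without vehicle replicate 1 (adjusted p = 0.0498).

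**Figure D2:**
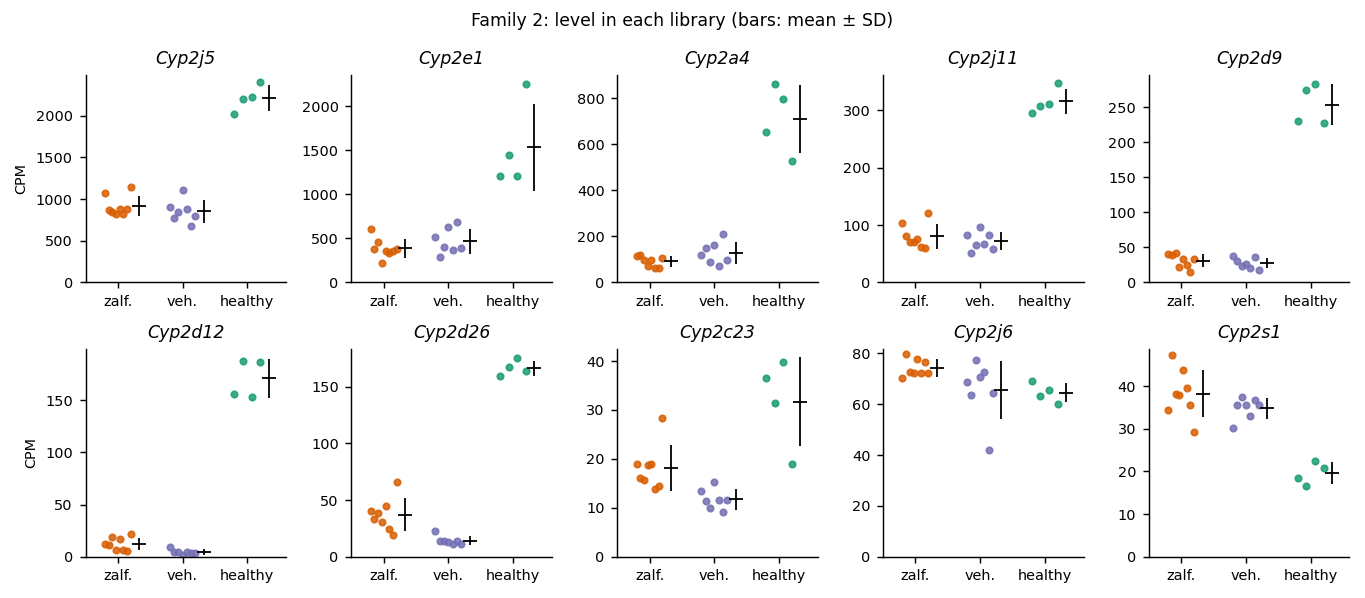
CPM of 10 family 2 genes in each library of zalfermin (zalf.), vehicle (veh.) and healthy kidneys, with the mean and SD as a bar beside each group. Cyp2d12 and Cyp2d9 lie near the axis in both obstructed groups, and Cyp2d26 does so in vehicle but reaches 66.1 CPM in zalfermin. Cyp2j6 is nearly level between vehicle and healthy apart from vehicle replicate 6 at 42.2 CPM, while every zalfermin library exceeds every healthy one. Cyp2s1 is higher in every obstructed library than in any healthy one.

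Among the family 4 members, most of the RNA in healthy kidneys was that of Cyp4b1, an oxidase of fatty acids and of foreign compounds. It held 222, 329.7 and 536 CPM in zalfermin, 310.0, 409 and 828 CPM in vehicle, and 2562, 2945, 3032 and 4170.4 CPM in healthy kidneys. The highest obstructed library stood far below the lowest healthy one, and the log2 fold change of vehicle over healthy was -2.64 (SE 0.243, adjusted p = 2.93e-09). Cyp4b1 made up 29.8% ± 7.15 of the summed CPM of the family 4 members in zalfermin, 41.3% ± 8.28 in vehicle and 79.2% ± 3.94 in healthy kidneys (SD, n = 8, 7 and 4). Cyp4a12a, which the rule left out, is not in this sum, and its level is not given here.

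The Cyp4a genes, fatty acid omega-hydroxylases that are textbook targets of the receptor PPAR-alpha, lie beside Cyp4b1 on chromosome 4, between 115411624 and 115647723, and moved in opposite directions. Cyp4a14 was at 190.0, 365 and 560.3 CPM in zalfermin, at 49.7, 239.8 and 706 CPM in vehicle, and at 19, 46.2, 70.6 and 114 CPM in healthy kidneys. Zalfermin libraries all exceeded the healthy ones, while vehicle libraries spread widely, with replicates 3 and 5 inside the healthy range (log2 of vehicle over healthy 2.16, SE 0.544, adjusted p = 0.00145). With voom this log2 fold change was 1.28. Cyp4a31 was at 162 ± 61.5 CPM in vehicle against 333 ± 62.7 CPM in healthy kidneys (SD, n = 7 and 4), a log2 of -1.04 (SE 0.206, adjusted p = 0.000121). Cyp4a10, best known in the liver as a peroxisome proliferator-induced gene, was at 216 ± 108 CPM in vehicle against 349 ± 102 CPM in healthy kidneys (log2 -0.69, SE 0.301, adjusted p = 0.0480). The call for Cyp4a10 was lost without any of zalfermin replicates 1, 2, 4, 5 and 8, vehicle replicates 1, 2, 3, 5 and 7, or healthy replicates 3 and 4, with upper-quartile scaling and in a fit of the 2 groups alone, at adjusted p of 0.0529 to 0.221. Cyp4a12b was called higher (log2 0.60, SE 0.218, adjusted p = 0.0191), and the call was lost without healthy replicate 1 or 2, in the 2-group fit and with voom, at adjusted p of 0.0511 to 0.0890.

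As a share of the summed CPM of the 4 Cyp4a members, Cyp4a14 made up 48.7% ± 4.45 in zalfermin, 36.9% ± 10.3 in vehicle and 7.70% ± 3.42 in healthy kidneys. The sum itself was 747 ± 202 CPM in zalfermin, 673 ± 393 CPM in vehicle and 756 ± 189 CPM in healthy kidneys. Only these group means were of similar size, since single vehicle libraries ran from 266 to 1417 CPM. Whether the make-up differed between libraries of like total was not tested. Cyp4a12a, which the rule left out, and the Cyp4a genes under 100 counts are in neither the shares nor the sum. Between Cyp4a10 and Cyp4a31 coding identity is 96.6%, and 18.4% and 12.8% of their 75-base stretches occur in other genes, while 41.3% of those of Cyp4a12b do, so the single values of these 3 genes are uncertain.

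**Figure D3:**
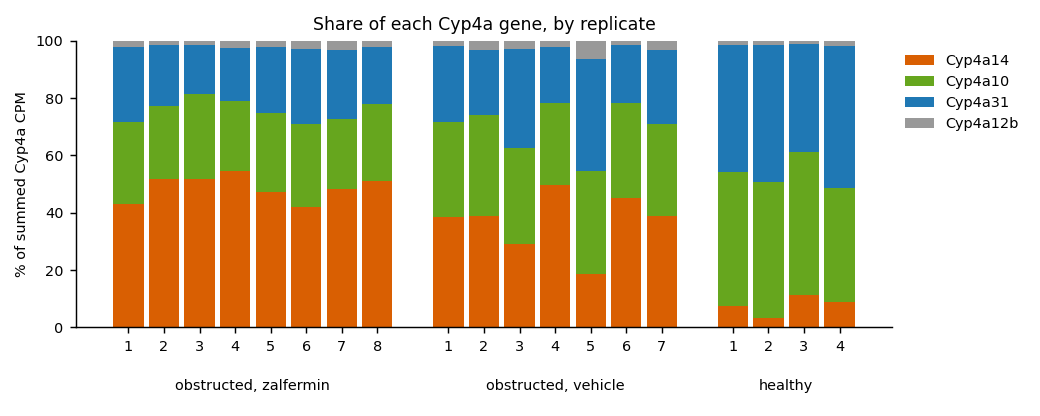
Share of each of the 4 Cyp4a members in their summed CPM in each library, by replicate number within the zalfermin, vehicle and healthy groups. Cyp4a12a is not among them. Cyp4a14 takes 41.8 to 54.5% in zalfermin, 18.7 to 49.8% in vehicle and 3.19 to 11.4% in healthy libraries.

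The Cyp4f genes, hydroxylases of leukotrienes and of long-chain fatty acids, also split. Cyp4f18, an enzyme of leukotriene B4 in mouse neutrophils, was at 6.08, 6.74 and 8.93 CPM in zalfermin, at 6.43, 7.23 and 8.23 CPM in vehicle, and at 0.506, 0.534, 0.710 and 1.38 CPM in healthy kidneys. The groups were far apart (log2 of vehicle over healthy 3.22, SE 0.220, adjusted p = 2.44e-11), and 181 bases of its exons overlap Zfp961 on the opposite strand. All 5 macrophage markers rose as well, their summed level running from 594 to 881 CPM in zalfermin, from 749 to 958 CPM in vehicle and from 129 to 154 CPM in healthy kidneys. The part of these cells in the level of Cyp4f18 was not tested. Cyp4f16 held 19.1 ± 1.19 CPM in vehicle against 7.04 ± 0.672 CPM in healthy kidneys (log2 1.44, SE 0.110, adjusted p = 1.34e-10), with 10.1% of its 75-base stretches found in other genes. Cyp4f17 rose less, by a log2 of 0.39 (SE 0.122, adjusted p = 0.00755). Cyp4f14, which also acts on leukotriene B4, was at 0.546 ± 0.497 CPM in vehicle against 2.28 ± 0.312 CPM in healthy kidneys, a log2 of -2.05 (SE 0.557, adjusted p = 0.00268), or -3.03 with voom. Cyp4f13 was at 30.6 ± 4.09 CPM in vehicle against 39.9 ± 3.62 CPM in healthy kidneys (log2 -0.38, SE 0.102, adjusted p = 0.00227). Its highest vehicle library, at 39.1 CPM, was replicate 6, without which the log2 was -0.51.

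Cyp4v3, the mouse counterpart of a human gene mutated in a retinal lipid disorder, stood outside these clusters on chromosome 8. It was at 21.8, 24.8 and 30.3 CPM in zalfermin, at 12.6, 20.6 and 26.3 CPM in vehicle, and at 7.10, 7.37, 7.76 and 8.01 CPM in healthy kidneys. All obstructed libraries exceeded the healthy ones (log2 of vehicle over healthy 1.47, SE 0.155, adjusted p = 2.38e-08). Cyp4f39, known for ceramide synthesis in skin, had too few counts for the test, with 70 counts in zalfermin, 33 in vehicle and 8 in healthy libraries.

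Among the other families, Cyp7b1 fell and Cyp1b1 rose. Cyp7b1, which hydroxylates oxysterols and the steroid DHEA, was at 27.3, 42.4 and 93.4 CPM in zalfermin, at 49.9, 95.7 and 127 CPM in vehicle, and at 422, 452, 489 and 522 CPM in healthy kidneys. No obstructed library came near the healthy range (log2 of vehicle over healthy -2.42, SE 0.253, adjusted p = 2.05e-08). Cyp1b1, an enzyme of oestrogens and polycyclic hydrocarbons known from mesenchymal cells, was at 106, 130.1 and 186 CPM in zalfermin, at 49.5, 145 and 176 CPM in vehicle, and at 17.8, 27.2, 28.1 and 49.3 CPM in healthy kidneys. The groups did not overlap, but vehicle replicate 6, at 49.5 CPM, lay only just above healthy replicate 1, at 49.3 CPM (log2 of vehicle over healthy 2.15, SE 0.289, adjusted p = 9.26e-07, or 2.24 without vehicle replicate 6). All 5 fibroblast markers rose too, with summed levels of 1108 to 1811 CPM in zalfermin, 1877 to 3502 CPM in vehicle and 127 to 208 CPM in healthy kidneys, and their part in the level of Cyp1b1 was not tested.

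Cyp27a1, the mitochondrial sterol 27-hydroxylase, was at 37.2 ± 1.92 CPM in vehicle against 57.4 ± 6.18 CPM in healthy kidneys (log2 -0.63, SE 0.0922, adjusted p = 3.27e-06). Cyp26b1, which breaks down retinoic acid, was at 1.82, 4.87 and 12.4 CPM in zalfermin, at 0.478, 1.5 and 6.96 CPM in vehicle, and at 9.53, 9.77, 13.3 and 16.6 CPM in healthy kidneys. Vehicle and healthy libraries did not overlap (log2 -2.38, SE 0.477, adjusted p = 0.000150), and without vehicle replicate 6, the highest vehicle library, the log2 was -2.99. Cyp20a1, an orphan P450 with no settled substrate, was at 27.5 ± 2.33 CPM in vehicle against 19.1 ± 1.82 CPM in healthy kidneys (log2 0.53, SE 0.0932, adjusted p = 3.48e-05). Cyp3a13, of the drug-metabolising family 3, was at 1.86 ± 0.350 CPM in vehicle against 0.519 ± 0.267 CPM in healthy kidneys (log2 1.83, SE 0.335, adjusted p = 5.28e-05). Cyp1a1, Cyp39a1 and Cyp46a1 did not pass the test, with log2 fold changes of -0.88, -0.06 and -0.04, and Cyp1a1 was called lower without healthy replicate 3 (adjusted p = 0.0228). Cyp26a1, another retinoic acid hydroxylase, had too few counts for the test, with 35 counts in zalfermin, 47 in vehicle and 22 in healthy libraries.

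Por, the common electron donor, was at 173, 212 and 244 CPM in zalfermin, at 147, 175 and 314 CPM in vehicle, and at 311, 380.5, 397 and 413 CPM in healthy kidneys. Vehicle replicate 6 was the one vehicle library to reach the healthy range (log2 of vehicle over healthy -0.96, SE 0.161, adjusted p = 1.81e-05, or -1.17 without that library). Of 9 tested further electron partners 5 fell and 1 rose, with a median log2 of -0.68. Of all tested genes, 28.6% were called lower in this comparison and 36.2% higher. Cytochrome b5, encoded by Cyb5a, fell to 290.4 ± 47.8 CPM in vehicle against 1043 ± 156 CPM in healthy kidneys (log2 -1.84), and the adrenodoxin gene Fdx1, which serves mitochondrial P450 enzymes, had a log2 of -1.35. Cyb5b, the mitochondrial form of cytochrome b5, had a log2 of -1.24. All 8 genes of haem synthesis fell, with a median of -0.68, among them Cpox at -1.03 and Fech, which inserts the iron, at -0.91. Of 4 haem breakdown genes Hmox2 (log2 -0.47) and Blvra (log2 -0.58) fell, and the inducible haem oxygenase gene Hmox1 rose (log2 0.76). Among P450 genes whose symbols the rule did not match, the sterol demethylase gene Cyp51 fell and the prostacyclin synthase gene Ptgis rose by a log2 of 1.25 (SE 0.223, adjusted p = 3.70e-05), while the thromboxane synthase gene Tbxas1 had a log2 of -0.09 (adjusted p = 0.598).

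Enzymes that handle the products of these genes, P450 regulators and marker genes were counted in the same way. Each count is to be read against the 28.6% of all tested genes called lower and the 36.2% called higher. Of 14 tested genes of epoxide hydrolysis and arachidonic acid metabolism 8 rose and 2 fell, with a median log2 of 0.47. Ephx2, the soluble hydrolase that opens arachidonic epoxides, fell to 234 ± 66.4 CPM in vehicle against 732 ± 156 CPM in healthy kidneys (log2 -1.65, SE 0.161, adjusted p = 7.32e-09). Alox5ap, which feeds leukotriene synthesis, rose by a log2 of 2.98. Of 15 tested transcription factors that regulate P450 genes 8 fell and 3 rose, Hnf4a with a log2 of -1.20, Rxra with -0.71 and Ppara with a log2 of -0.88 among those that fell, and Ahr with a log2 of 1.09 among those that rose. Of 15 tested PPAR-alpha targets outside the P450 genes 10 fell and 4 rose, with a median of -0.56, and Angptl4 (log2 1.70) and Plin2 (log2 0.95) were among those that rose. The fatty acid oxidation gene Acadm had a log2 fold change of -1.75. Of 5 tested targets of the aryl hydrocarbon receptor 3 fell and 1 rose, Nqo1 having a log2 of -1.18 and Aldh3a1 one of 2.49. Of 10 tested retinoid genes 7 rose and 1 fell, and among them the retinoic acid synthase gene Aldh1a2 had a log2 of 4.73, and the retinol transporter gene Stra6 one of 3.58. Of the other marker lists, 5 of 6 genes of thick limb and distal tubule, 5 of 6 of collecting duct and 2 of 4 of podocytes fell, and 1 podocyte gene rose. In endothelium 3 of 5 rose and 1 fell, 3 of 5 lymphocyte and 2 of 5 urothelium genes rose, 2 of 4 tested adrenal cortex genes rose, and 0 of 5 tested adipocyte genes were called by edgeR, with 0 at an unadjusted p under 0.05. Of 6 hepatocyte genes, which mark another organ rich in P450 enzymes, 4 fell and 2 rose, with summed levels of 69.8 to 133 CPM in zalfermin, 62.0 to 123 CPM in vehicle and 144 to 196 CPM in healthy kidneys. Alb among them ran from 7.55 to 42.8 CPM in healthy kidneys. Of the P450 genes under the count limit, Cyp3a11 had 15 of its 22 counts in healthy replicate 3, and Cyp2c50 had all 5 there. Whether that library carried RNA of liver was not tested.

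Under zalfermin 4 of the 39 tested members were called against vehicle. In edgeR's test 3 of 39 members (7.69%) were called higher, where 0.867% of all tested genes were. Lower calls came to 1 member (2.56%), against 0.942%, and calls in either direction to 1.81% of all genes. Another 8 members had an unadjusted p under 0.05 without passing the correction. This made 12 of 39 members (30.8%) at that level, where 2479 of the 16026 tested genes (15.5%) were. All 3 that rose, Cyp2d26, Cyp2d12 and Cyp2c23, belong to family 2, where 3 of 18 genes were called. None of 11 tested family 4 genes was called by edgeR or by DESeq2 or voom, and 2 of them, Cyp4b1 and Cyp4v3, had an unadjusted p under 0.05. The median log2 fold change was 0.18 in family 2, -0.02 in family 4 and 0.04 in the other families, against 0.01 over all tested genes. For no member did zalfermin and vehicle libraries lie wholly apart, as they did for 0.605% of all genes, 0.349% lying higher and 0.256% lower. Over all genes the calls were 139 higher and 151 lower, but 105 higher and 191 lower with upper-quartile scaling. Without vehicle replicate 6 the counts were 3 higher and 1 lower but not of the same genes, as Cyp2c23 was no longer called (adjusted p = 0.0613) and Cyp26b1 was (adjusted p = 0.0193).

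Cyp2d26 was at 19.2, 36.0 and 66.1 CPM in zalfermin and at 11.1, 13.7 and 22.8 CPM in vehicle kidneys. Its groups met only through vehicle replicate 1, the highest vehicle library, since the other vehicle libraries reached 14.3 CPM. The log2 fold change was 1.38 (SE 0.199, adjusted p = 0.00122), and the call held in all 26 alternatives, at log2 1.21 to 1.52. Cyp2d12 was at 5.05, 11.7 and 21.6 CPM in zalfermin and at 1.59, 4.59 and 9.75 CPM in vehicle kidneys (log2 1.40, SE 0.315, adjusted p = 0.0231). Its call was lost without zalfermin replicate 5 or vehicle replicate 7, at adjusted p of 0.0525 and 0.0529. Both genes stayed well under the healthy level, with log2 fold changes of zalfermin over healthy of -2.16 for Cyp2d26 and -3.81 for Cyp2d12. The other Cyp2d members did not pass the test, Cyp2d22 at a log2 of 0.35 (interval 0.14 to 0.56, adjusted p = 0.0819) and Cyp2d9 at 0.18 (interval -0.21 to 0.56, adjusted p = 0.685).

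Cyp2c23 was at 13.9, 17.4 and 28.4 CPM in zalfermin and at 9.17, 11.5 and 15.4 CPM in vehicle kidneys. The groups overlapped through vehicle replicate 4, at 15.4 CPM, which exceeded zalfermin replicates 6 and 7 (log2 0.63, SE 0.162, adjusted p = 0.0475). This call was the least stable of the 3. It was lost with RLE and with upper-quartile scaling and without any of zalfermin replicates 1, 2, 3, 4, 5 and 8, vehicle replicates 1, 2, 3, 5, 6 and 7, or healthy replicates 1 and 2, at adjusted p of 0.0512 to 0.0925.

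Cyp7b1 was the member called lower, at 27.3, 42.4 and 93.4 CPM in zalfermin against 49.9, 95.7 and 127 CPM in vehicle kidneys (log2 -0.91, SE 0.217, adjusted p = 0.0306). Zalfermin replicates 1 and 3 lay inside the vehicle range, while the other 6 zalfermin libraries lay below the lowest vehicle library. The call was lost without zalfermin replicate 2, 4, 5 or 7 or vehicle replicate 1, 2 or 4, at adjusted p of 0.0525 to 0.0691. It thus moved further from the healthy level, with a log2 of zalfermin over healthy of -3.33, where vehicle over healthy was -2.42. Cyp4b1 and Cyp2a4 had the same sign without passing the test, at log2 -0.51 (interval -0.94 to -0.09, adjusted p = 0.226) and -0.49 (interval -0.90 to -0.08, adjusted p = 0.235). Of the 12 proximal tubule markers, Slc5a12 was called higher under zalfermin (log2 0.90, adjusted p = 0.0231) and Kap lower (log2 -0.98, adjusted p = 0.0166), and the other 10 were not called. An unadjusted p under 0.05 was found for 6 of the 12, against 15.5% of all tested genes. Among these, Slc5a2 (log2 0.41), Cubn (log2 0.37) and Slc22a8 (log2 0.78) had the sign of Slc5a12, and Slc7a13 (log2 -1.05) had that of Kap. How far this marker RNA bears on the Cyp changes was not tested.

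The result for Cyp26b1 varied with the setting. Over all libraries its log2 fold change of zalfermin over vehicle was 1.12 (interval 0.23 to 2.0, adjusted p = 0.202), and without vehicle replicate 6 it was 1.67 (SE 0.384, adjusted p = 0.0193). Voom called it on all libraries (adjusted p = 0.0170), and over the 26 alternatives the log2 ran from 0.78 to 1.86. For the genes that obstruction had raised, the intervals of zalfermin over vehicle were -0.40 to 0.48 for Cyp1b1, -0.29 to 0.25 for Cyp4f18, -0.11 to 0.23 for Cyp4f16 and -0.44 to 1.24 for Cyp4a14. Por had an interval of -0.16 to 0.40. Of the 5 fibroblast markers, Col1a1 (log2 -0.86, adjusted p = 0.00301) and Col3a1 (log2 -0.77, adjusted p = 0.00543) were called lower under zalfermin and 0 higher. Lower calls came to 0.942% of all tested genes. The part of these markers in the level of Cyp1b1 was not tested. None of the electron partners, haem synthesis genes, arachidonic acid enzymes, P450 regulators and PPAR-alpha targets passed the test, while 1 of 8, 4 of 14, 3 of 15 and 4 of 15 genes of the last 4 lists had an unadjusted p under 0.05, to be read against the 15.5% of all tested genes.

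**Figure D4:**
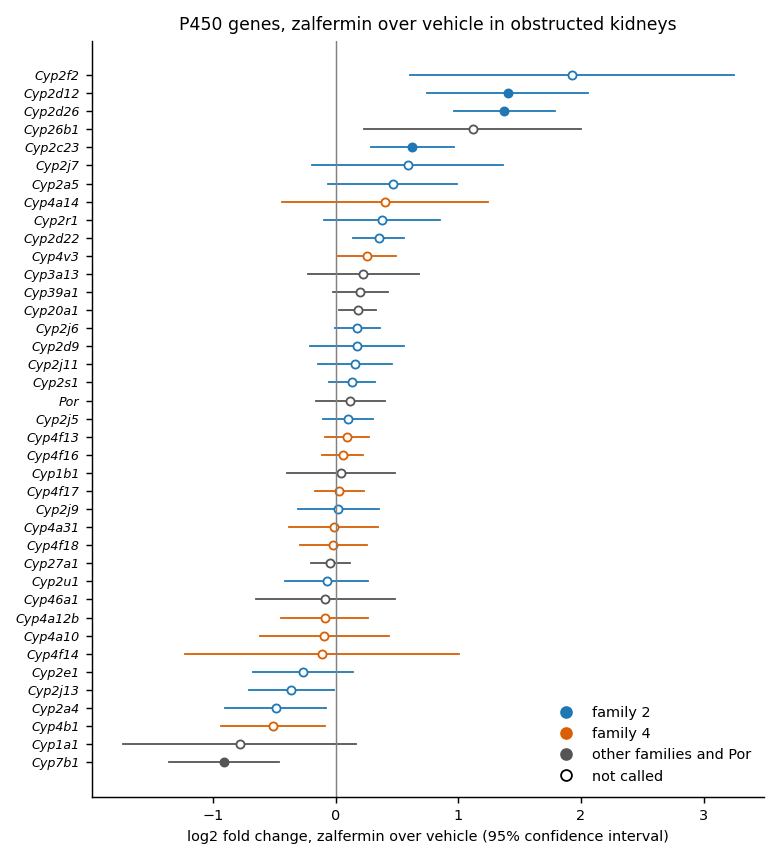
Log2 fold change of zalfermin over vehicle in obstructed kidneys for the 39 tested members, with 95% confidence intervals, coloured by family. Filled points passed an adjusted p of 0.05, namely Cyp2d12, Cyp2d26 and Cyp2c23 to the right of 0 and Cyp7b1 to the left.

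Zalfermin-treated obstructed kidneys, set against healthy ones, had 23 members called lower, where 27% of all genes were, and 11 called higher, against 37.3%, or 34 in all where 64.3% of all genes were called. This comparison shares its zalfermin libraries with the second comparison and its healthy libraries with the first. In family 2, 13 genes were lower and 2 higher, in family 4 the split was 5 lower and 6 higher, and in the other families 4 lower and 3 higher. Cyp2d22 was called higher here, at 34.7 ± 6.36 CPM in zalfermin against 24.0 ± 2.83 CPM in healthy kidneys (log2 0.53, SE 0.124, adjusted p = 0.000739). Cyp1a1, the classical target of the aryl hydrocarbon receptor, was called lower at 0.362 ± 0.128 CPM in zalfermin against 1.17 ± 0.801 CPM in healthy kidneys (log2 -1.66, SE 0.510, adjusted p = 0.00688), but with voom its adjusted p was 0.313. Zalfermin and healthy libraries did not overlap for 18 members lying lower, where 21.7% of all genes did so, and for 10 lying higher, against 29.4%, and 51.2% of all genes stood apart in either direction. Calls of this comparison were lost for Cyp4a10 without healthy replicate 3 (adjusted p = 0.133), for Cyp4f13 without healthy replicate 4 (adjusted p = 0.0722) and for Cyp26b1 without healthy replicate 1 (adjusted p = 0.0644). The call of Cyp4a12b was lost in 11 settings at adjusted p of 0.0532 to 0.118, among them without any of zalfermin replicates 3, 4, 5, 7 and 8, vehicle replicate 6, or healthy replicates 1, 2 and 3. Cyp2j6 was called higher in 3 of 26 settings, without vehicle replicate 6, in the 2-group fit and with voom, at adjusted p of 0.0102 to 0.0456. Cyp2j9 was called lower in 6 of 26, without vehicle replicate 6 or healthy replicate 2, with RLE scaling, in the 2-group fit, by DESeq2 and with voom, at adjusted p of 0.0174 to 0.0490.

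Promoter sequences were at hand for 29 of the 41 members, from RefSeq on GRCm38.p6, as windows from 250 bases before to 50 after the gene start. Windows of 3 genes that fell and of Cyp1b1, which rose, are printed as examples of the matches and were chosen after these were seen. Among the genes that fell more than Cyp2e1, Cyp2f2, Cyp4b1, Cyp2j11 and Cyp4f14 had no TATAAA. The TATA box TATAAA, searched on both strands, was found in 7 of the 15 windows of genes that fell with obstruction under vehicle, in 0 of 7 windows of genes that rose, in 1 of 5 windows of genes not called, and in 14.2% of all 27025 windows. The half-site GTTAAT of HNF1 factors was in 3 of 15 windows of genes that fell, in 0 of 7 that rose and in 7.2% of all. The nuclear receptor half-site AGGTCA was in 4 of 15 that fell, in 0 of 7 that rose and in 16% of all. The core GCGTG of the aryl hydrocarbon receptor site was in 3 of 15 that fell, in 4 of 7 that rose, in 4 of 5 not called and in 32.5% of all, and the HNF4 element CAAAGTCCA was in 0 of the 29 member windows and in 0.477% of all. The median number of CpG pairs was 3 in windows of genes that fell, 16 in those that rose and 7 in all windows. Members of a cluster are related copies, so their windows are not independent. The bases before the gene start are printed 5′ to 3′ on the gene's strand, with matches on either strand in capitals. In Cyp2d26, at chr15:82794246-82794495 on the minus strand, they are GTTAAT and TATAAA, the second starting 31 bases before the gene start. Both read on the strand opposite to the gene. In Cyp2d9, at chr15:82452127-82452376 on the plus strand, and in Cyp2e1, at chr7:140763569-140763818 on the plus strand, they are TATAAA, and in Cyp1b1, at chr17:79715062-79715311 on the minus strand, GCGTG. The matches of Cyp2d9 and Cyp1b1 are also on the opposite strand, and that of Cyp2e1 is on the gene's own strand.
Cyp2d26: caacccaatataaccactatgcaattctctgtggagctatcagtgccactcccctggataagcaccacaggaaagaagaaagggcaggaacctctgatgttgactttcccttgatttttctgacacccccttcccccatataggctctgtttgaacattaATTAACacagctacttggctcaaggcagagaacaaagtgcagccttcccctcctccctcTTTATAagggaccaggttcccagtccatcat
Cyp2d9: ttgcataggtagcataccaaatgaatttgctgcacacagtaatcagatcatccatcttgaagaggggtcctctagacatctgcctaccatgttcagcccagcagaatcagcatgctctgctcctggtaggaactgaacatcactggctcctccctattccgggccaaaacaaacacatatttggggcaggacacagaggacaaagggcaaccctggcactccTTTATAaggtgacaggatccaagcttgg
Cyp2e1: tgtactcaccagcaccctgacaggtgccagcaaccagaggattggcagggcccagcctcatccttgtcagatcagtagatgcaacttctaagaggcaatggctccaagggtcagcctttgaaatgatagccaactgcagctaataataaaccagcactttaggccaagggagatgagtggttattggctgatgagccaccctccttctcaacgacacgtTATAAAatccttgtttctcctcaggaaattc
Cyp1b1: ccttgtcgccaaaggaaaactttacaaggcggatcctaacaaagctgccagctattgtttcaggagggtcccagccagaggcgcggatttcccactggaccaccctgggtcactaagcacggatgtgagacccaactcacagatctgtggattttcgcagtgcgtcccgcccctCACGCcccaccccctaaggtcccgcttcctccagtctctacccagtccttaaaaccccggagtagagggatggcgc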

How the data were processed

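RNA of whole kidneys was sequenced as directional libraries (NEBNext Ultra II) on a NextSeq, per the labels' protocols. The submitters' processing notes name STAR 2.7.0f and the build GRCm38, and no source used here names the counter, its strand setting or its annotation. The values are raw read counts per gene, deposited by the authors, and all 55536 gene IDs were found in GENCODE M21, which gave coordinates and exon lengths. The members and gene lists were chosen with earlier results of these data known. In edgeR 4.0.16 (R 4.3.3) the counts of all 19 libraries were scaled by TMM, and genes of low counts were set aside with filterByExpr at a count of 10 and a total of 15. This kept 16026 genes, and the 39510 left untested held 0.115% of the counts. One quasi-likelihood fit of the 3 groups gave 3 two-sided contrasts, adjusted by Benjamini-Hochberg over all tested genes with a threshold of 0.05. The SE is the log2 fold change divided by the root of F, and the 95% interval uses the t quantile with edgeR's degrees of freedom. The code was tested on simulated data. TMM factors ran from 1.01 to 1.08 in zalfermin, 1.02 to 1.11 in vehicle and 0.751 to 0.843 in healthy libraries. Alternatives were RLE and upper-quartile scaling, no filter, 1 CPM in at least 4 libraries, fits of 2 groups, DESeq2 1.42.0, voom with quality weights (limma 3.58.1) and leaving out each library. Genes given in full were Por, in each class the 4 members with the highest mean CPM per kb, the 4 with the smallest p for vehicle against healthy and up to 4 called against the class's main direction, and every member called under zalfermin. Of each pathway list the 2 genes with the smallest p and any called under zalfermin were to be named, of which some are not reported here, and other pathway genes in the text were chosen after their values were seen. Near-identical copies were judged from shared 75-base stretches of transcripts.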

Additional observations from a re-analysis of the deposited data

Results flagged for a closer look

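In 12 of 123 sets of 1 member in 1 group, a single library stood apart from the rest by Dixon's test, where chance gives about 1 in 20, and 5 of them were values of vehicle replicate 6. In that library Cyp2j6 was at 42.2 CPM (other vehicle libraries 63.7 to 77.4), Cyp2j9 at 5.96 CPM (10.9 to 13.5), Cyp1b1 at 49.5 CPM (124 to 176), Cyp4f13 at 39.1 CPM (27.9 to 32.1) and Cyp26b1 at 6.96 CPM (0.478 to 3.18). Vehicle replicate 1 was highest for Cyp2d12, at 9.75 CPM (1.59 to 4.83), and for Cyp2d26, at 22.8 CPM (11.1 to 14.3). Among zalfermin libraries, Cyp2c23 was at 28.4 CPM in replicate 8 (13.9 to 19) and Cyp26b1 at 12.4 CPM in replicate 4 (1.82 to 5.36). Among healthy libraries, Cyp2j13 was at 544 CPM in replicate 4 (325 to 345), Cyp4a10 at 501 CPM in replicate 3 (284 to 319) and Cyp27a1 at 48.1 CPM in replicate 1 (59.9 to 61.2).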

How the results depend on the processing

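Over 26 alternatives, 30 of 32 calls of vehicle against healthy, 1 of 4 of zalfermin against vehicle and 29 of 34 of zalfermin against healthy held throughout, and no called change turned its sign. Of 504 named log2 fold changes under other settings, 495 kept direction and side of the threshold, 4 lost and 1 gained a call and 4 uncalled ones turned. Leaving out 1 library, 1314 of 1368 kept both, 37 lost a call and 17 turned. Voom called 6 members higher under zalfermin than under vehicle, in place of 3, and gave log2 values of -0.196 for Cyp1b1, 0.304 for Cyp4a10, 0.164 for Cyp4a31 and 0.331 for Cyp4f14 in that comparison, and the cause was not tested. Leaving out 1 library gave 1 to 3 members higher and 0 to 1 lower for zalfermin against vehicle, 9 to 10 and 21 to 23 for vehicle against healthy, and 10 to 12 and 22 to 24 for zalfermin against healthy. For zalfermin against vehicle it gave log2 values of -0.119 to 0.113 for Cyp1b1, -0.220 to 0.132 for Cyp4a10, -0.101 to 0.170 for Cyp4a31, -0.423 to 0.352 for Cyp4f14 and -0.068 to 0.015 for Cyp4f18. Against vehicle, DESeq2 called Cyp2f2 under zalfermin (adjusted p = 0.0449), and voom called Por (0.0291), Cyp2d22 (0.0485) and Cyp26b1 (0.0170). No paired analysis was possible because the replicate numbers follow the order of deposit and pair no samples. Genes near 1 CPM, such as Cyp2f2 and Cyp4f14, rest on few counts.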
